A study of Mus musculus with 12 samples.

Results

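The inflammatory CC chemokines and their receptors were followed in the mouse cecum after cauterization, which injures the gut surface and leads to adhesions. They comprised 7 ligands, Ccl2, Ccl3, Ccl4, Ccl7, Ccl8, Ccl11 and Ccl12, and 2 receptors, Ccr1 and Ccr2, chosen by name as 9 of the 37074 genes on the array, and they were covered by 10 probes. RNA came from 12 mice labelled male, of the C57BL/6 strain according to the methods of the study, with 3 arrays in each of 4 groups: a sham control, which the methods place at 0 h, and cecum tissue at 3, 12 or 72 h after the injury was made with bipolar coagulation forceps under pentobarbital anesthesia. The age of the mice is not given in the sources used here, and the same sham arrays served as control for all 3 times. Because the sham tissue was taken at 0 h, the passage of time after surgery and the cauterization itself cannot be told apart in the differences from sham.

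Every level below is the log2 of the spot's background-corrected intensity minus the 75th percentile of its array, so that 0 is that percentile and 1 unit is a 2-fold difference. Each array had 60.2% to 65.2% of its probes well above background. The sham, 3 h and 12 h replicate 1 and 2 arrays lay on 1 slide, and 12 h replicate 3 and the 72 h arrays on another, so slide and time can be separated for 72 h only through 1 array. All 10 epithelium markers and all 6 smooth muscle markers were well above background on all arrays. The sex genes did not follow the labels in full, since Xist, which is transcribed from the inactive X chromosome, was well above background on 12 of 12 arrays, Ddx3y and Eif2s3y on 0, Uty on 1, a sham array, and the brightest Kdm5d probe on 12. The median over all probes moved by 0.06, -0.02 and -0.15 from sham at 3, 12 and 72 h.

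CC chemokines are small secreted proteins named for adjacent cysteines near their start, and they guide leukocytes along a gradient through receptors coupled to inhibitory G proteins. Ccl2, Ccl7 and Ccl12 bind Ccr2, the receptor through which classical monocytes leave the bone marrow and enter injured tissue. Ccl3 binds Ccr1, and Ccl11, or eotaxin, draws eosinophils through Ccr3. Several cell types of the gut wall, among them macrophages, fibroblasts, mesothelial and endothelial cells, can make these ligands. In whole tissue, fewer cells of a type and less RNA per cell cannot be told apart.

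The genes of the 7 ligands lie on mouse chromosome 11. By the mm9 positions of their probes, Ccl7, Ccl11, Ccl12 and Ccl8 follow Ccl2 at 10, 25.7, 66.1 and 79.5 kb, all on the plus strand, and Ccl3 and Ccl4 lie farther along, at 1610.7 and 1627.4 kb. Both receptor genes lie on chromosome 9. The RefSeq promoter table, on GRCm38.p6, matched 5 of the 9 genes, namely Ccl3, Ccl8, Ccl12, Ccr1 and Ccr2. The 250 bases before the start are shown for the neighbours Ccl12 and Ccl8, whose courses parted at 72 h, and for Ccl3, which with Ccl4 had the largest differences from sham. They span chr11:82101595-82101844 on the plus strand for Ccl12, chr11:82114935-82115184 on the plus strand for Ccl8 and chr11:83649379-83649628 on the minus strand for Ccl3, each written 5′ to 3′ with TATAAA in capitals.
Ccl12: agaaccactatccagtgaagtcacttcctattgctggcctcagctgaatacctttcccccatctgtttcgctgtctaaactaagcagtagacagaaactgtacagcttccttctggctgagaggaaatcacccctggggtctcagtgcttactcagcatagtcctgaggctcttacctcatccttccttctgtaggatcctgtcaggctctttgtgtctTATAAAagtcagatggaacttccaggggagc
Ccl8: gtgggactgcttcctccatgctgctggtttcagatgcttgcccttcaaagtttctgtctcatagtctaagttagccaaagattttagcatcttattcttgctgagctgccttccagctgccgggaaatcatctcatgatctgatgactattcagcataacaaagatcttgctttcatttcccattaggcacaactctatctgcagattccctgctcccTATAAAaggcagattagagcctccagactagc
Ccl3: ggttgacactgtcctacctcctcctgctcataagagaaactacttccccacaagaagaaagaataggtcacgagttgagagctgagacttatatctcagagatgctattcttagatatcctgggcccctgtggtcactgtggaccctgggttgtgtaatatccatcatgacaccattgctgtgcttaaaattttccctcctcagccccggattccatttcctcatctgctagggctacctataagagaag
TATAAA, searched on both strands like all the motifs, stood 31 to 26 bases before the start of Ccl12 and 32 to 27 bases before that of Ccl8, and in none of the other 3 windows. It was present in 12.4% of 32851 mouse promoter windows of the same length. TGANTCA, TTCNNNGAA, TGACGTCA and a strict form of the NF-κB site were in none of the 5 windows. They were present in 6.75%, 7.02%, 1.55% and 1.21% of those 32851 windows. Looser forms of the NF-κB site were not searched, so their absence is not shown. Ccl12 and Ccl8 thus carried the same TATAAA at nearly the same place. Their levels are described below.

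At 3 h, 6 of the 9 genes were called higher than in sham and none lower, where 3.26% of all genes were called higher and 4.11% lower. Genes were called where the fold exceeded 2 and limma's adjusted p stayed under 0.05. These were Ccl2, Ccl3, Ccl4, Ccl7, Ccl11 and Ccr1. At 12 h, Ccr2 joined them for 7 higher and 0 lower, against 4.1% and 4.96% of all genes. At 72 h, Ccl8 joined as well for 8 higher and 0 lower, against 4.55% and 4.3%. Ccl12 was called at no time. The median difference from sham over the 9 genes was 2.62, 3.45 and 3.38 at 3, 12 and 72 h. The value of 3.45 is that of Ccr1, whose sham level was not well above background, and with Ccr1 at its bound the medians were 2.62, 2.47 and 3.38. Over the 4 groups, limma's F-test passed an adjusted p of 0.05 for 8 of the 9 genes, all but Ccl12, and for 39.3% of all genes.

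**Figure D1:**
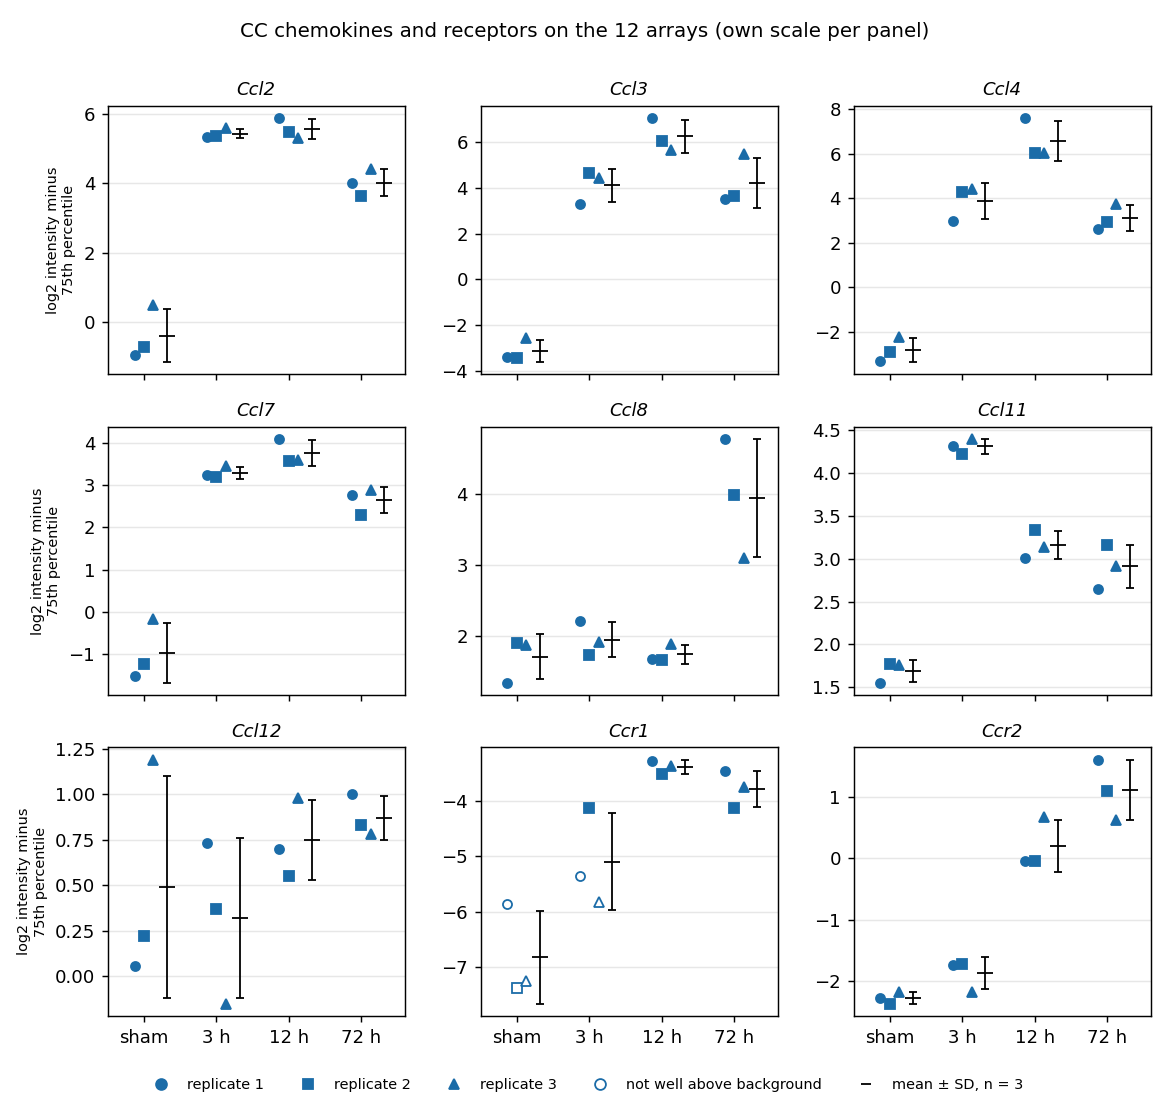
Level of each gene on each of the 12 arrays, as log2 intensity minus the array's 75th percentile, with its own vertical scale per panel. Points are arrays (symbol by replicate, open where not well above background) and bars are the mean ± SD of 3. The sham arrays lie below all later arrays for Ccl2, Ccl3, Ccl4 and Ccl7, Ccl8 rises only at 72 h, and Ccr2 lies above sham at 12 and 72 h.

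Ccl2 and Ccl7, neighbouring genes whose products attract monocytes through Ccr2, moved together. The Ccl2 level was -0.95, -0.72 and 0.48 on the sham arrays, 5.35, 5.38 and 5.59 after 3 h, 5.89, 5.49 and 5.32 after 12 h and 4.01, 3.64 and 4.40 after 72 h. All 9 arrays of cauterized tissue stood above all sham arrays, and the 72 h arrays stood below those of 3 and 12 h. The differences from sham were 5.84 ± 0.34 (SE) at 3 h (adjusted p = 1.13e-05), 5.97 at 12 h (adjusted p = 7.24e-06) and 4.41 at 72 h (adjusted p = 4.16e-05), or folds of 57.1, 62.5 and 21.3. Between 3 and 12 h, Ccl2 differed by 0.13, with overlapping arrays (adjusted p = 0.835). It was then lower at 72 h than at 12 h (difference -1.55, adjusted p = 0.012) and than at 3 h (difference -1.42, adjusted p = 0.0111).

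The Ccl7 level was -1.52, -1.24 and -0.16 on the sham arrays, 3.23, 3.19 and 3.45 after 3 h, 4.09, 3.57 and 3.59 after 12 h and 2.77, 2.30 and 2.87 after 72 h. Its group means had the order of those of Ccl2, with 12 h highest and 72 h lowest of the 3 times. As for Ccl2, the difference between 12 and 3 h was not called (0.46, adjusted p = 0.377, limma). Ccl7 exceeded sham by 4.26 ± 0.32, 4.73 ± 0.32 and 3.62 ± 0.32 at 3, 12 and 72 h (adjusted p = 3.97e-05, 1.5e-05 and 7.86e-05, limma). The fall from 12 to 72 h was -1.10 (adjusted p = 0.0374), close to the threshold, and was lost when any of 8 arrays was left out: 3 h replicates 1 and 2 and each 12 h and 72 h array (differences from -1.22 to -0.93, highest adjusted p 0.125). Sham replicate 3 had the highest sham level of Ccl2, Ccl3, Ccl4, Ccl7, Ccl12 and Ccr2, by as much as 1.20 for Ccl2 and 0.97 for Ccl12 over the next sham array.

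The decline of Ccl2, Ccl3, Ccl4 and Ccl7 from 12 to 72 h rested on arrays of different slides. With slide as a block, the 72 h minus 12 h differences were -1.31 for Ccl2, -1.47 for Ccl3, -2.95 for Ccl4 and -0.94 for Ccl7, and none was called (adjusted p = 0.191, 0.318, 0.0682 and 0.272, limma). Those are also the differences of the 3 arrays of 72 h from the 1 array of 12 h on the same slide, and each kept its sign.

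Ccl12 and Ccl8 are the far members of the same gene row, and neither was called at 3 or 12 h. Ccl12, a mouse ligand of Ccr2 related to Ccl2, had levels of 0.06, 0.22 and 1.19 on the sham arrays, 0.73, 0.37 and -0.15 after 3 h, 0.70, 0.55 and 0.98 after 12 h and 1.0, 0.83 and 0.78 after 72 h. The groups overlapped with sham at every time, and the sham group had the widest spread (SD 0.61, n = 3). The differences from sham were -0.18, 0.26 and 0.38, each ± 0.30 (adjusted p = 0.713, 0.64 and 0.427, limma). Without sham replicate 3, the 3 h difference turned from -0.18 to 0.18, and it was not called in either case.

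Ccl8, which in the mouse acts on Ccr8, stayed at its sham level until 12 h. It stood at 1.34, 1.90 and 1.88 on the sham arrays, 2.21, 1.73 and 1.91 after 3 h, 1.68, 1.66 and 1.89 after 12 h and 4.76, 3.98 and 3.10 after 72 h. The 72 h arrays lay above all 9 others, though 1.66 apart from each other. The difference from sham was 0.24 ± 0.35 at 3 h (adjusted p = 0.652), 0.03 ± 0.35 at 12 h (adjusted p = 0.972) and 2.24 ± 0.35 at 72 h (adjusted p = 0.00188), a fold of 4.71. From 12 to 72 h it rose by 2.20 (adjusted p = 0.00249) and relative to 3 h by 1.99 (adjusted p = 0.00216). With slide as a block the 3 values were 2.02, 2.06 and 1.77, and none was called (adjusted p = 0.139, 0.0612 and 0.118). On the second slide alone, the 72 h arrays exceeded the 12 h array by 2.06.

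Ccl3 and Ccl4, also known as MIP-1α and MIP-1β, are made largely by activated leukocytes, and they showed the largest differences of the 9 genes. Ccl3 stood at -3.39, -3.45 and -2.57 in sham, 3.29, 4.65 and 4.42 after 3 h, 7.07, 6.08 and 5.68 after 12 h and 3.54, 3.63 and 5.47 after 72 h. Every array of cauterized tissue was far above sham, the 12 h arrays were the highest, and 72 h replicate 3 stood 1.84 above the next 72 h array. Ccl3 exceeded sham by 7.26 ± 0.58 at 3 h (adjusted p = 5.92e-05), 9.41 at 12 h (adjusted p = 9.51e-06) and 7.35 at 72 h (adjusted p = 4.41e-05), or folds of 153, 682 and 163. The step from 3 to 12 h was 2.15 (adjusted p = 0.0468) and was lost when any of 10 arrays was left out, the exceptions being 72 h replicates 1 and 3 (differences from 1.74 to 2.45, adjusted p from 0.0218 to 0.15). The step from 12 to 72 h was -2.06 (adjusted p = 0.0339) and was lost without 12 h replicate 1 or 2 or 72 h replicate 1 or 2 (differences from -2.69 to -1.67 over all arrays left out, highest adjusted p 0.119). From 3 to 72 h, Ccl3 differed by 0.09, which became -0.54 without 72 h replicate 3 and -0.33 without 3 h replicate 1, called in no case.

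Ccl4 was measured by 2 probes that overlap by most of their length. By the brighter one, its level was -3.32, -2.92 and -2.22 on the sham arrays, 2.96, 4.29 and 4.42 after 3 h, 7.62, 6.06 and 6.06 after 12 h and 2.61, 2.93 and 3.76 after 72 h. The 12 h arrays were the highest and did not overlap with the other times. The differences from sham were 6.71 ± 0.54, 9.40 ± 0.54 and 5.92 ± 0.54 at 3, 12 and 72 h (adjusted p = 6.07e-05, 7.24e-06 and 9.79e-05, limma), or folds of 105, 677 and 60.7. The dimmer probe gave 6.77, 9.54 and 6.08. Ccl4 rose by 2.69 from 3 to 12 h (adjusted p = 0.0152) and was lower at 72 h than at 12 h (difference -3.48, adjusted p = 0.00224), a fold of 11.2.

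Ccl11 was the gene whose 3 h level was the highest of its course. It was 1.55, 1.77 and 1.76 on the sham arrays, 4.31, 4.22 and 4.40 after 3 h, 3.01, 3.33 and 3.14 after 12 h and 2.65, 3.16 and 2.92 after 72 h. The replicates were close, the 3 h arrays lay above all the rest, and the 12 and 72 h arrays overlapped. The differences from sham were 2.62 ± 0.15 at 3 h (adjusted p = 9.23e-06), 1.47 at 12 h (adjusted p = 0.000133) and 1.22 at 72 h (adjusted p = 0.000508), or folds of 6.14, 2.77 and 2.32. Ccl11 fell from 3 to 12 h (difference -1.15, adjusted p = 0.00225) and was lower at 72 h than at 3 h (difference -1.40, adjusted p = 0.000169), and from 12 to 72 h the difference was -0.25 (adjusted p = 0.275). With slide as a block these 3 were -1.14, -1.38 and -0.24, and the first 2 kept their call. Of 8 markers of eosinophils, the cells that eotaxin attracts, 7 were well above background on all sham arrays and again on all 72 h arrays. At 3 h and at 12 h only 5 were well above background on all arrays, and Epx was so on none of the 12 arrays. Their summed level was 0.955 to 1.20 in sham, 0.931 to 1.13 at 3 h, 1.53 to 1.81 at 12 h and 1.77 to 4.76 at 72 h. None of the 8 eosinophil markers was called at 3 or 12 h, and Ear1 and Ear2 were higher at 72 h (2.54 and 2.0).

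**Figure D2:**
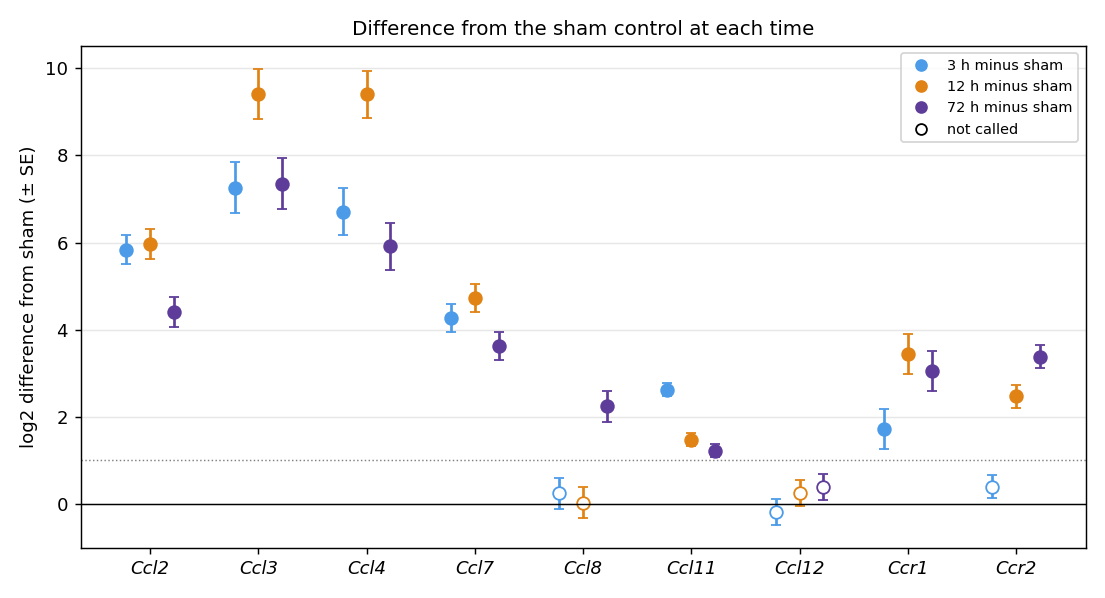
Difference from the sham control in log2 units (± SE from the limma fit) for each gene at 3, 12 and 72 h; filled points were called, and the dotted line marks a 2-fold rise. Ccl3 and Ccl4 reach 9.41 and 9.40 at 12 h, Ccl11 is highest at 3 h, Ccl8 is called at 72 h only and Ccl12 not at all; the sham level of Ccr1 was not well above background.

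Both receptors were called higher at 12 h than at 3 h. Ccr2, the receptor of Ccl2, Ccl7 and Ccl12 and a marker of classical monocytes, stood at -2.28, -2.37 and -2.17 on the sham arrays, -1.73, -1.72 and -2.17 after 3 h, -0.04, -0.05 and 0.68 after 12 h and 1.61, 1.09 and 0.62 after 72 h. The 3 h arrays were next to sham, the 12 h arrays were all above them, and the 72 h arrays overlapped with 12 h at their low end. The difference from sham was 0.40 ± 0.27 at 3 h (adjusted p = 0.307), 2.47 ± 0.27 at 12 h (adjusted p = 0.000199) and 3.38 ± 0.27 at 72 h (adjusted p = 4.63e-05), or 5.54-fold and 10.4-fold at the later times. Ccr2 rose by 2.07 from 3 to 12 h (adjusted p = 0.0024) and by 2.98 from 3 to 72 h (adjusted p = 9.16e-05), and with slide as a block by 1.83 and 2.25 (adjusted p = 0.00874 and 0.0284). From 12 to 72 h the difference of 0.91 had an adjusted p of 0.0413 but a fold of 1.88, under the threshold. It passed without 12 h replicate 3 or 72 h replicate 3 (highest difference 1.15), and was 0.43 with slide as a block.

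Ccr1, a receptor of Ccl3 on monocytes and neutrophils, was well above background on 0 sham arrays, on 1 at 3 h (replicate 2), and on all 3 at 12 h and at 72 h. The measured values were -5.87, -7.38 and -7.26 in sham, -5.36, -4.13 and -5.82 after 3 h, -3.27, -3.52 and -3.36 after 12 h and -3.46, -4.12 and -3.75 after 72 h. Sham arrays were lowest and the 12 and 72 h arrays highest, with overlap between the latter. The measured differences of Ccr1 from sham were 3.45 at 12 h and 3.06 at 72 h (adjusted p = 0.00068 and 0.0017, limma). They rest on sham values not well above background. With the later mean set against the lowest signal well above background on the sham arrays, the bounds were 3.11-fold at 12 h and 2.37-fold at 72 h. These bounds carry no test. At 3 h no bound above 1 could be given, and the call (adjusted p = 0.0274) was lost without sham replicate 2, sham replicate 3 or 3 h replicate 2 (adjusted p up to 0.098). Ccr1 was called higher at 12 h and at 72 h than at 3 h (differences 1.72 and 1.33, adjusted p = 0.0483 and 0.0468), but 2 of the 3 h arrays were not well above background. With these set to the lowest signal well above background on their array, the differences were 1.19 and 0.79, the latter under the fold threshold, and normexp gave 0.14 and -0.06. Each of these calls against 3 h held without sham replicate 1 or 3 h replicate 2 only, and was lost when any of the other 10 arrays was left out (highest adjusted p 0.132 and 0.148). Background correction by normexp gave differences from sham of 0.23, 0.37 and 0.17, under the fold threshold. It adds an offset of 50, where the Ccr1 intensities ran from 1.27 to 23.6. An offset of that size shrinks any difference at so low a signal. The normexp values of Ccr1, those against 3 h included, therefore cannot decide on its change. With slide as a block the 72 h call was lost (adjusted p = 0.108, limma).

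Between the times after injury, 4 of the 9 genes were called higher and 1 lower at 12 h than at 3 h, where 1.89% and 1.56% of all genes were called. They were Ccl3, Ccl4, Ccr1 and Ccr2, and Ccl11 below. From 12 to 72 h, Ccl8 alone was called higher and Ccl2, Ccl3, Ccl4 and Ccl7 lower, or 1 and 4 of 9, against 4.33% and 3.19% of all genes. From 3 to 72 h, 3 were higher (Ccl8, Ccr1 and Ccr2) and 2 lower (Ccl2 and Ccl11), against 6.19% and 5.51%. With slide as a block the counts of calls fell to 3, 0 (3 at an unadjusted p under 0.05, limma) and 2, namely Ccl4, Ccr2 and Ccl11 at 12 h against 3 h, and Ccr2 and Ccl11 at 72 h against 3 h. In the same fit the calls over all genes went from 1282 to 905, from 2788 to 1225 and from 4339 to 1152.

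**Figure D3:**
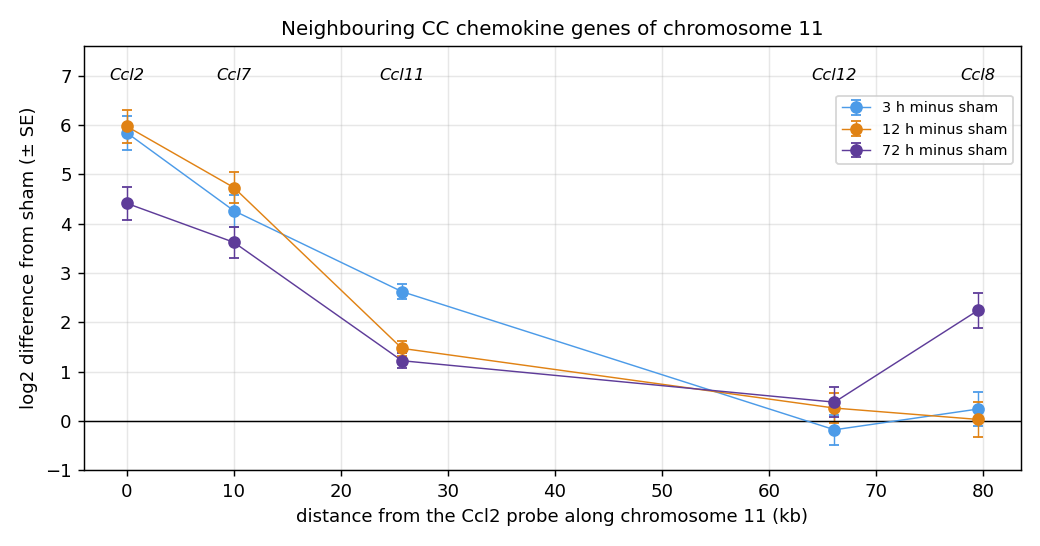
Log2 difference from sham (± SE) at 3, 12 and 72 h for the 5 neighbouring ligand genes of chromosome 11, against the distance of each probe from the Ccl2 probe in kb. The difference drops from Ccl2 (5.84 at 3 h) through Ccl7 (4.26) and Ccl11 (2.62) to Ccl12 (-0.18) and Ccl8 (0.24), and at 72 h Ccl8 stands at 2.24; the lines join genes only to guide the eye.

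Along the row of 5 genes on chromosome 11, the difference from sham at 3 h thus decreased with each gene from Ccl2 to Ccl12, and the gene farthest from Ccl2 was the one with a late rise. Unequal change of pairs was tested on the per-array difference of their levels with exact two-sided permutation tests, in 18 comparisons, where 3 arrays against 3 cannot give a p below 0.1 and none passed (the lowest adjusted p was 0.164). The changes are therefore given as sizes. From 12 to 72 h, Ccl2 changed by -1.55 and Ccl8 by 2.20, an unequal change of -3.76 with no overlap between arrays (exact p = 0.1). Ccl2 minus Ccl7 changed by -0.33 from 3 to 12 h and by -0.45 from 12 to 72 h, the smallest sizes among the steps in which arrays did not overlap. Ccl2 minus Ccl3 changed by -2.02 and Ccl2 minus Ccl11 by 1.28 from 3 to 12 h. Ccl3 minus Ccl4 changed by -0.54 from 3 to 12 h, with overlap (exact p = 0.2), and by 1.42 from 12 to 72 h, without (exact p = 0.1). Ccl2 minus its receptor Ccr2 changed by -1.94 and then by -2.46, with no overlap in either step (exact p = 0.1 each). Ccr1 minus Ccr2 changed by -1.30 from 12 to 72 h.

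Across the 12 arrays, which share their groups and so are not independent, Pearson's r was 0.995 between Ccl2 and Ccl7 and 0.984 between Ccl3 and Ccl4. It was 0.128 between Ccl2 and Ccl8 and 0.148 between Ccl2 and Ccl12. Among 23806 other genes well above background in at least 1 group, the course of Ccl2 was most like that of Socs3 (r = 0.992), Rap1b (0.991), a transcript without symbol on chromosome 1 (0.988), Olr1 and Anxa1 (both 0.987). Socs3 is a feedback inhibitor of STAT3 signaling. For Ccl3 the most alike were Il1a (0.997), Irg1 (0.996), Il1f9, Mrgpra2b and Cxcl2 (all 0.994), of which Il1a encodes interleukin-1α and Cxcl2 a neutrophil-attracting chemokine. Ccl8 was most like Pros1, Six4 and Tpbg (all 0.98), Esam and Bicc1 (both 0.977), and Ccr2 most like Fes (0.989), Arap3 (0.978), Cd300ld (0.976), Wtip (0.973) and Tgfbi (0.972). These values describe likeness over 4 groups and carry no test.

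Of the 14 other CC ligands on the array, 3 were higher and 1 lower at 3 h, 4 against 1 at 12 h and 3 against 1 at 72 h. Their median differences from sham were 0.06, 0.13 and 0.01. Ccl24, a further eotaxin, rose by 1.68, 2.59 and 2.55, and Ccl9, a ligand of Ccr1, by 1.80, 2.47 and 2.71 at 3, 12 and 72 h. Ccl6, also a ligand of Ccr1, was higher at 12 and 72 h (2.07 and 2.13). Ccl22 was called higher at 3 and 12 h but lay well above background on 0 sham arrays and 2 of 3 at each of those times, giving at least 1.24-fold and 1.20-fold. Ccl27a, an epithelial ligand, was lower at 3 and 12 h (-1.07 and -1.44), and Ccl17 was lower at 72 h (-2.22). Ccl26 was well above background on no array.

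**Figure D4:**
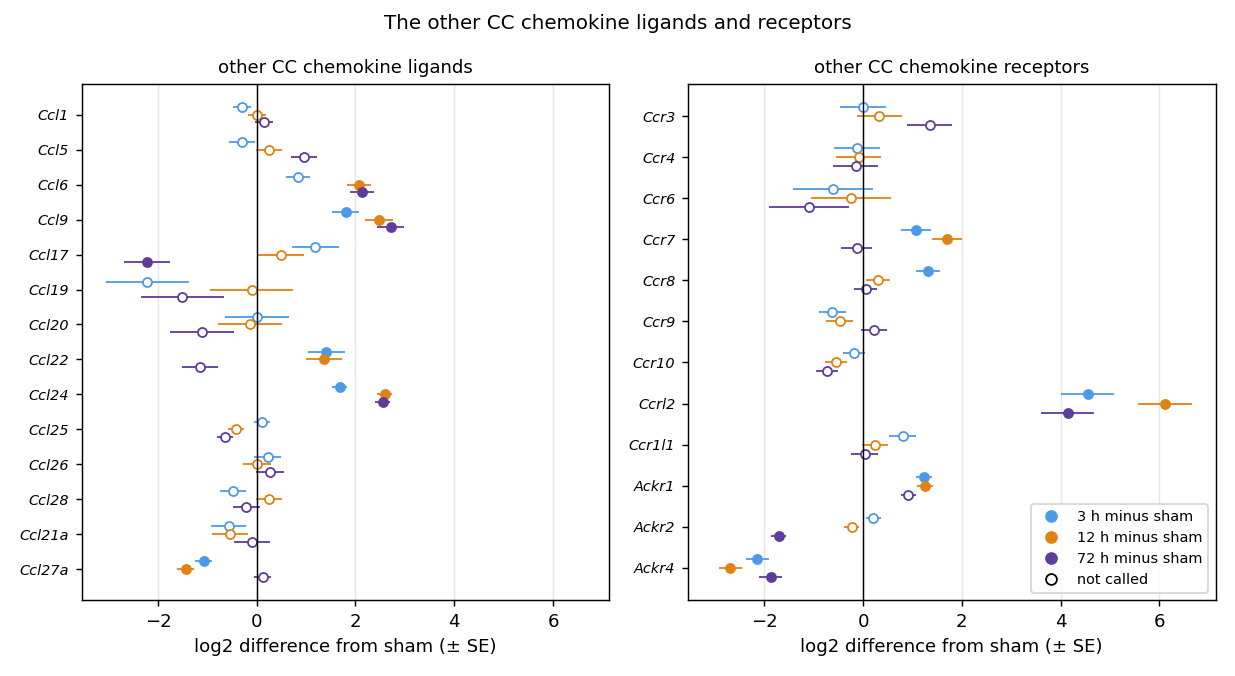
Log2 difference from sham (± SE) at 3, 12 and 72 h for the 14 other CC ligands (left) and 12 other receptors (right); filled points were called. Ccl6, Ccl9 and Ccl24 lie above 2 at 12 and 72 h, Ccrl2 between 4.14 and 6.11, and Ackr4 below -1.8 at each time.

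Over 12 other CC receptors, 4 were higher and 1 lower at 3 h, 3 against 1 at 12 h and 1 against 2 at 72 h. Their median differences from sham were 0.10, 0.07 and -0.05. Ccrl2, which binds chemerin and does not signal as a chemokine receptor, showed the largest rise among these 12, 4.55, 6.11 and 4.14 ± 0.54. Ccr8, the receptor of Ccl8, was higher at 3 h (1.31, adjusted p = 0.00414) and stood at 0.05 from sham at 72 h (adjusted p = 0.905), when Ccl8 was high. Ccr3, the receptor of Ccl11 and Ccl24, differed from sham by 0.00, 0.33 and 1.35 (adjusted p = 0.997, 0.704 and 0.0642).

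The atypical receptors, which take up chemokines without G protein signaling, went in both directions. Ackr4 fell at each time, by -2.14, -2.69 and -1.87 (adjusted p = 0.000325, 6.11e-05 and 0.00063). Ackr2, which degrades inflammatory CC chemokines including Ccl2 and Ccl3, had differences of 0.21 and -0.23 at 3 and 12 h and was lower at 72 h (-1.71, adjusted p = 7.29e-05). Ackr1, which carries chemokines across venules, rose by 1.23 and 1.25 at 3 and 12 h and differed by 0.92 at 72 h. Ccr7 rose at 3 and 12 h (1.07 and 1.70).

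Among 18 genes of chemokine receptor signaling, 1 was higher and 1 lower at 3 h, 4 against 0 at 12 h and 2 against 0 at 72 h. Their median differences from sham were 0.03, 0.36 and 0.11. Of all genes, 3.26%, 4.1% and 4.55% were called higher at 3, 12 and 72 h, and 4.11%, 4.96% and 4.3% lower. With 18 genes, 1 call each way at 3 h is near those shares. The same shares stand beside the counts of the other lists against sham. Pik3r5, a regulatory subunit of the PI3-kinase that G proteins activate, rose by 1.46, 2.15 and 2.46, and Arrb2, a β-arrestin that ends receptor signaling, by 1.03 and 1.61 at 12 and 72 h. Rac2, a GTPase of leukocyte migration, was higher at 12 h (2.04), as was Grk5 (1.18), and Gng2 was lower at 3 h (-1.03).

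**Figure D5:**
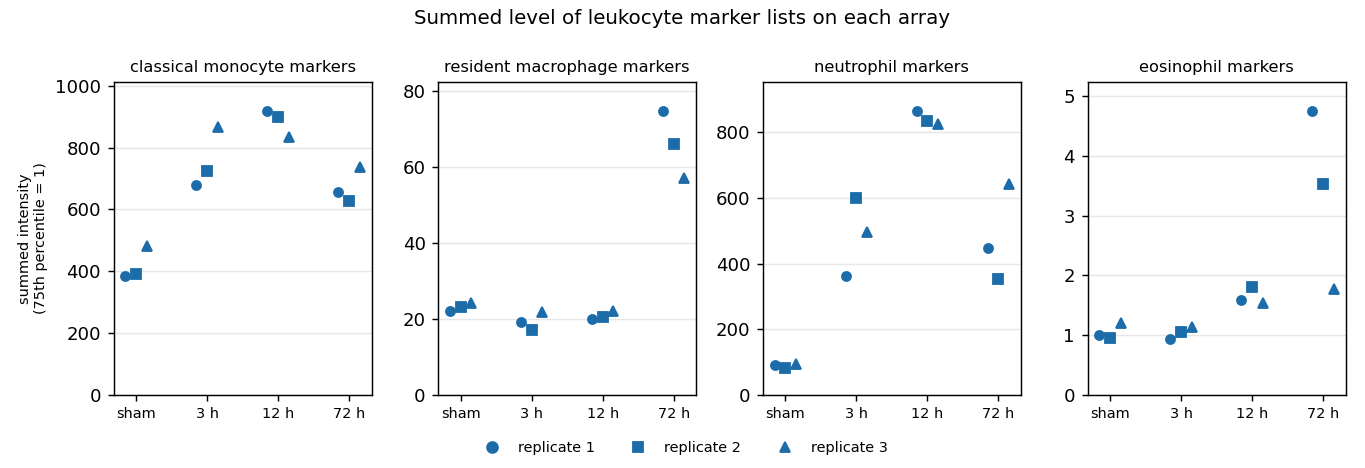
Summed intensity of 4 leukocyte marker lists on each array, in units of the array's 75th percentile, on axes that start at 0; points are arrays, 3 per group. Neutrophil markers stand between 826 and 866 at 12 h, against 81.9 to 93.0 in sham, and resident macrophage markers between 57.2 and 74.9 at 72 h only.

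Some neutrophil and classical monocyte markers were called higher at every time after injury, resident macrophage markers mostly at 72 h and T cell markers at no time. The part of these markers in the results was not tested. Of 13 neutrophil markers, 7, 10 and 8 were higher at 3, 12 and 72 h, none lower, and their summed level ran from 81.9 to 93.0 in sham, 361 to 600 at 3 h, 826 to 866 at 12 h and 353 to 643 at 72 h. As for Ccl3 and Ccl4, the summed level was highest at 12 h. The same held for the mast cell markers (24.1 to 36.5), the other CC receptors (30.8 to 75.7) and the receptor signaling genes (168 to 183). The classical monocyte sums also reached their highest value at 12 h, where they overlapped with 3 h. From 12 to 72 h, 3 of the 13 were called lower, Ly6g, Ngp and Ltf (-3.73, -5.12 and -2.83), and 1 higher, Mpo (2.16). At 72 h, Ly6g and Ngp stood at -0.08 and 0.94 from sham, not called, and S100a8 and S100a9 at 10.96 and 10.07. In sham, 9 of the 13 were well above background on all arrays, and Cxcr2, Ltf and Ngp on none. Of 12 classical monocyte markers, 4, 7 and 8 were higher and none lower, with Clec4e above background on no sham array, and the summed level was 383 to 481 in sham, 678 to 865, 835 to 919 and 627 to 736. Chil3, Cd14 and Clec4e were called at 3, 12 and 72 h, and Ly6c2 at 3 and 12 h only. F13a1, S100a4 and Vcan were called at 12 and 72 h but not at 3 h, and Csf1r and Lyz2 at 72 h alone. From 12 to 72 h, Csf1r was called higher (1.79) and Ly6c2, Chil3, Cd14 and Plac8 lower (-2.52, -2.62, -1.44 and -1.43), a step in which Ccr2 was not called.

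Of 12 resident macrophage markers, 0 were higher and 1 lower at 3 h, 2 against 2 at 12 h and 8 against 0 at 72 h. Their summed level was 22.2 to 24.1 in sham, 17.1 to 21.8 at 3 h, 19.9 to 22.0 at 12 h and 57.2 to 74.9 at 72 h, so that, as for Ccl8, the 72 h arrays stood apart, with replicate 1 the highest and replicate 3 the lowest in both. The summed levels of the fibroblast, mesothelial and eosinophil lists had the same order within 72 h. Cd163, Mrc1 and C1qb were among the genes raised at 72 h (2.17, 1.71 and 1.61). The median over the list at 72 h was 1.52, and 4 of the 12 were not called. From 12 to 72 h, 8 were called higher, and Fcgr1, Timd4, Cd209f and Lyve1 were not called (0.65, 0.95, 1.69 and 0.16). Before 72 h the list did not move as one. At 12 h, Fcgr1 and Adgre1 were called higher (2.55 and 1.21) and Cx3cr1 and Folr2 lower (-1.21 and -1.47). No values with slide as a block are given for the marker lists. Of 8 fibroblast markers, 4 were higher at 72 h, with summed levels of 139 to 152 in sham and 347 to 770 at 72 h, and 3 were lower at 12 h. Of 8 mesothelial markers, 1 was higher and 3 lower at 3 h and again at 12 h, and 4 were higher at 72 h. Smooth muscle markers were lower in 6 of 6 cases at 12 h and 5 at 72 h, and of 10 epithelium markers 2 were higher at 3 h and 1 lower at 72 h. Of 8 T cell markers, 0 were higher at any time and 1 was lower at 3 h, and of 8 mast cell markers 2, 1 and 4 were higher.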

How the data were processed

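RNA of 12 cecum samples was measured on Agilent SurePrint G3 Mouse 8x60K arrays with 1 dye. The authors deposited, per array, the background-corrected intensity of each spot from Feature Extraction 11.5.1.1, not normalized between arrays, and a table of log2 values that the authors scaled to the 75th percentile in GeneSpring and that is centred by row. Probe positions are those of mm9. The study calls the arrays biological triplicates.

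Outlier spots were dropped, repeated spots were averaged, and log2 intensity minus the 75th percentile over 56605 non-control probes was computed, which matched the differences in the authors' table (Pearson r = 1). Group means over 12 arrays were modelled in limma 3.58.1 (R 4.3.3), with Benjamini-Hochberg adjustment over all probes, and calls needed a fold above 2 and an adjusted p below 0.05. Of several probes of a gene, the brightest on average stood for it. A probe not well above background in a group was given a bound. The fit was tested on simulated data. The number of arrays, 3 a group, limits the precision.

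The 9 genes and all lists (other CC ligands and receptors, receptor signaling, markers of monocytes, resident macrophages, neutrophils, eosinophils, T cells, mast cells, mesothelium, fibroblasts, epithelium and smooth muscle, and sex genes) were chosen with earlier results of these data known. The genes named were the 9, up to 5 of each list with the largest difference at the time discussed, the 5 most alike in course to Ccl2, Ccl3, Ccl8 and Ccr2, and the sex genes; further list genes were named after their values were seen. Alternatives were 26 settings: quantile normalization, other percentiles, normexp with an offset of 50, the authors' table, dim probes left out, outlier spots kept, slide or replicate number as a block, eBayes with trend, the compared groups alone, the mean of all probes, the methods' t-test (paired by replicate number, with no fold threshold), and each of 12 arrays left out. No protein sequences were used here, and 1 gene of the receptor list is not reported here.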

Additional observations from a re-analysis of the deposited data

Results flagged for a closer look

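The differences from sham were called unequal between times for 15 combinations of a gene and a pair of times. The calls needed a fold above 2 and an adjusted p below 0.05 in limma's test of the difference itself. Ccr2 at 72 h against 12 h passed that adjusted p (0.0413) but not the fold. Over all genes, 1.89% were called higher and 1.56% lower at 12 h against 3 h. The shares were 4.33% and 3.19% at 72 h against 12 h, and 6.19% and 5.51% at 72 h against 3 h. At 12 h against 3 h, the difference from sham was larger by 2.15 for Ccl3, 2.69 for Ccl4, 1.72 for Ccr1 and 2.07 for Ccr2, and lower for Ccl11 (-1.15). At 72 h against 12 h it was lower for Ccl2 (-1.55), Ccl3 (-2.06), Ccl4 (-3.48) and Ccl7 (-1.10) and larger for Ccl8 (2.20). At 72 h against 3 h it was lower for Ccl2 (-1.42) and Ccl11 (-1.40) and larger for Ccl8 (1.99), Ccr1 (1.33) and Ccr2 (2.98). The sham arrays cancel in these values, so each is the difference between the later and the earlier arrays. For Ccr1, 2 of the 3 h arrays were not well above background, and with them at the lowest signal well above background the differences from 3 h were 1.19 and 0.79. The 72 h arrays lay on another slide than all but 1 of the rest, and with slide as a block 3 of 5, 0 of 5 (3 past the fold at an unadjusted p under 0.05, limma) and 2 of 5 calls remained at 12 h against 3 h, 72 h against 12 h and 72 h against 3 h. Groups of 3 arrays are too small for a test of single outlying arrays.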

How the results depend on the processing

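Against sham, the 26 alternatives left the counts of calls at 3, 12 and 72 h at or near 6, 7 and 8, except that the methods' t-test, paired by replicate number and without a fold threshold, with adjustment gave 0 in all 6 comparisons, where without adjustment it gave 5, 7 and 7 against sham. Leaving out each array gave 5 to 6, 7 to 7 and 8 to 8. The count for 12 h against 3 h was 5 and became 3 with slide as a block, 3 with the replicate block, 2 with only the groups compared, 2 by the methods' t-test without adjustment and 3 to 4 without single arrays. For 72 h against 12 h it was 5 and became 3 after quantile normalization, 0 with slide as a block (3 past the fold at an unadjusted p under 0.05 in limma) and 3 to 5 without single arrays, and for 72 h against 3 h it was 5 and became 2 with slide as a block and 4 to 5 without single arrays. The count of 8 genes in the F-test stayed within 1.5 times under all alternatives run for it. So did the count of 11 steps without overlap among the 18 pair comparisons. None of the 18 passed the exact test, and no share over other genes is given for that count. Over all genes, normexp gave 838, 1327 and 1258 calls against sham at 3, 12 and 72 h, where the main counts were 2732, 3360 and 3282, and slide as a block gave 1152 at 72 h. The calls against sham lost with slide as a block were Ccl8 and Ccr1 at 72 h.

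Signs turned only for differences near 0 or, for Ccr1, under 1 alternative: Ccl12 at 3 h against sham was 0.18 without sham replicate 3 and 0.06 without 3 h replicate 3. Ccl8 at 12 h against sham was -0.03 after quantile normalization and with the percentile over probes above background, -0.04 with slide as a block, 0.00 with the percentile over all spots, a setting chosen after seeing the data, -0.15 without sham replicate 1 and -0.04 without 12 h replicate 3. Ccl2 at 12 h against 3 h was -0.03 without 12 h replicate 1, Ccl12 at 72 h against 12 h was -0.11 with slide as a block, Ccr1 at 72 h against 3 h was -0.06 with normexp, and Ccl3 at 72 h against 3 h was -0.33 without 3 h replicate 1 and -0.54 without 72 h replicate 3. Over all arrays left out, these 4 differences ran from -0.39 to 0.18 for Ccl12 at 3 h, from -0.15 to 0.13 for Ccl8 at 12 h, from -0.03 to 0.25 for Ccl2 and from -0.54 to 0.43 for Ccl3. The cause was not tested. Same-numbered arrays of different groups had correlations of their deviations from -0.162 to 0.087 over 18 pairs, against -0.112 to 0.14 over 36 pairs of unlike number. No pairing by number was seen in these values, which cannot exclude that samples were paired. The replicate block moved no count but that of 12 h against 3 h by over 1.5 times. Of all values by gene, comparison and alternative, 1266 kept their direction and side of the threshold, 121 lost a call, 4 gained one and 13 turned sign. The methods' t-test gave 44 of the losses and 2 of the gains, Ccl11 at 72 h against 12 h and Ccl7 at 72 h against 3 h, both under the fold threshold. Signal over background limits Ccr1 and Ccl22.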
